A study of Mus musculus with 4 samples.

Results

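The genes described here encode the actin cytoskeleton and its contractile and regulatory proteins, together with targets of serum response factor (SRF). They were chosen by symbol: 33 names were listed, 1 of them the protein name transgelin for Tagln, which leaves 32 genes of the 18193 that the array names by a single symbol. These 32 genes had 73 probe sets, the short probe groups by which the array reads a transcript. All groups were ST2, an immortal stromal line with fibroblast shape, derived from the marrow of BALB/c mice and grown in RPMI medium with 10% serum under 5% CO2. One array held control cells cultured at 37 °C. Each of the remaining 3 arrays held cells that had received low-intensity pulsed ultrasound (LIPUS), which is used clinically on bone fractures, at 25 mW per square cm during 20 min, followed by 0.5, 1 or 3 h at 37 °C. The labels give no sham exposure and no harvest time for the control cells, and each group is 1 array of 1 cell line. The design addresses which transcripts respond early to the stimulus.

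Actin filaments are built from actin monomers, pulled by myosin, stabilised by tropomyosins and calponins, bundled by α-actinins and filamin, and taken apart by cofilins. SRF is a transcription factor that binds a short DNA element, the CArG box, and works with either of 2 kinds of partner. Ternary complex factors, activated by MAP kinases, bring it to immediate-early genes such as Fos and Egr1. The myocardin-related factors MRTF-A and MRTF-B are held in the cytoplasm by actin monomers and enter the nucleus when filaments assemble, where they bring SRF to genes of the cytoskeleton itself. Stretch and adhesion are well-known triggers of the MRTF branch in fibroblasts and stromal cells.

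None of the 31 measured members differed 2-fold from the control at any time after LIPUS, and 1 differed 1.5-fold. That gene was Tnnt2, which encodes cardiac troponin T, and it was 1.85-fold lower at 3 h. Of all measured genes, 0.138%, 0.191% and 0.0691% differed 2-fold at 0.5, 1 and 3 h, so counts of 0 of 31 are near the background. The 1.5-fold step was passed by 0.527% of all genes at 3 h. Srf itself, the calponin relative Tagln2 and the LIM adaptor Pdlim7 were lower at 1 h and 3 h by smaller amounts. At 1 h Actn4, Myl9 and Lmod1 lay lower than Srf, at log2 ratios of −0.21, −0.21 and −0.20 against −0.17. A log2 shift of at least 0.25 was met by 3 of 31 members at 1 h and 3 at 3 h, where 18.8% and 12.8% of all genes met it. The actins, filamin, the cofilins and profilin stayed close to the control by their brightest probe sets. A second Actb probe set was higher than the control, by 0.33, 0.38 and 0.23 on the log2 scale at the 3 times. On the same arrays 3 of 9 measured immediate-early targets of SRF rose 2-fold at 0.5 h and at 1 h. The shares of all genes past 2-fold in either direction were 0.138% and 0.191%. This list, like the members, was chosen with earlier results of these data known. Fos was at least 12.1-fold and Egr1 8.93-fold higher at 0.5 h. At both times 7 of the 9 were above the control. The other 2, Egr3 and Nr4a1, were below it, at log2 ratios of −0.05 and −0.03 at 0.5 h and −0.31 and −0.28 at 1 h. With 1 array per group there is no replicate check, no test and no p-value, so a gene is counted as different by size alone. In whole cultures, fewer cells of a type and less RNA per cell cannot be told apart.

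Of the 32 genes, 31 were measured, meaning that the log2 signal of the gene's brightest probe set lay above the median of all values, 5.23, on at least 1 array of a comparison. Vil1, which encodes the epithelial bundling protein villin, had signals of 3.61, 3.55, 3.59 and 3.73 on the control, 0.5 h, 1 h and 3 h arrays, all under that floor. At 0.5 h, 0 of 31 members differed 2-fold in either direction, where 0.138% of all 11574 measured genes did. At 1 h the count was 0 of 31 against 0.191% of genes, and at 3 h it was 0 of 31 against 0.0691%. Counts of 0 of 31 are near these backgrounds. The lower step of 1.5-fold was passed by 0 members at 0.5 h, where 0.475% of genes passed it, by 0 at 1 h against 1.28%, and by 1 at 3 h against 0.527%. Between adjacent LIPUS arrays, 0 members differed 2-fold from 0.5 h to 1 h, where 0.0435% of genes did, and 0 from 1 h to 3 h, where 0.087% did.

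The members' median log2 ratio to the control was −0.04, −0.03 and −0.05 at the 3 times in order, where that of all measured genes was 0.01, 0.02 and 0.01. Members below the control numbered 26 of 31 at 0.5 h, 23 at 1 h and 20 at 3 h, where 46.9%, 45.1% and 47.5% of all genes lay below it. The counts move with the scaling of the arrays: at 0.5 h, 20 members were below the control after each array was centred on its median and 28 after cyclic loess, and at 1 h 19 were below it after centring. The medians stayed negative under every scaling tried, between −0.07 and −0.01 over the 3 times. For a single gene, the disagreement between its 2 brightest probe sets gives the scale: the SD of the difference between their log2 ratios, divided by the square root of 2, was 0.108, 0.158 and 0.138 in the order of the times, pooled over 5284, 5292 and 5285 genes. Over the 16 members with several measured probe sets the same SD was 0.103, 0.166 and 0.112. The 3 comparisons use the same control array.

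**Figure D1:**
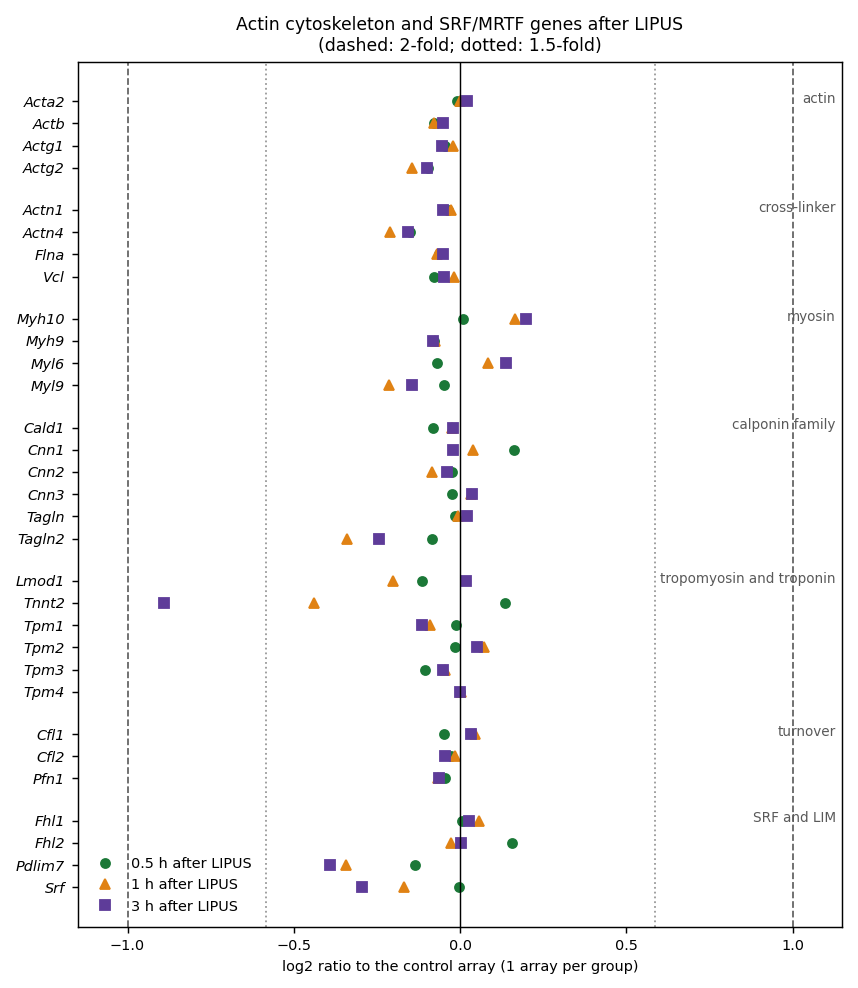
Log2 ratio of the 31 measured members to the control array (horizontal axis) at 0.5 h (circles), 1 h (triangles) and 3 h (squares) after LIPUS, 1 array per group, grouped by role; vertical lines mark 1.5-fold and 2-fold. Tnnt2 at 3 h lies furthest from the control, at −0.89, and no gene reaches a 2-fold line.

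Most members are bright on this array, and bright probe sets varied little between any of the arrays. On the control array 21 of the 31 measured members lay among the brightest 1% of probe sets, above a log2 signal of 12.57, and the highest probe set of any gene reached 14.46. The difference between the highest and the lowest of the 4 arrays was under 0.1 for 17 of 31 members, with a median of 0.09, where 14.1% of 11685 genes had so narrow a range and the median was 0.20. Among genes with a mean signal of at least 12, a limit chosen after the data were seen, 73.9% of 23 members and 55.6% of all 394 genes had a range under 0.1. At 0.5 h the median ratio of these 394 genes was −0.00 and 50.3% of them were below the control, against 22 of the 23 members with a median of −0.05. At 1 h 18 and at 3 h 16 of the 23 members were below it, where 46.4% and 44.2% of the bright genes were. A shift of at least 0.25 on the log2 scale, also chosen after the data were seen, was met by 0 of 31 members at 0.5 h, 3 at 1 h and 3 at 3 h, where 6.16%, 18.8% and 12.8% of all genes met it. Whether the signal of the brightest probe sets is compressed was not tested.

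**Figure D2:**
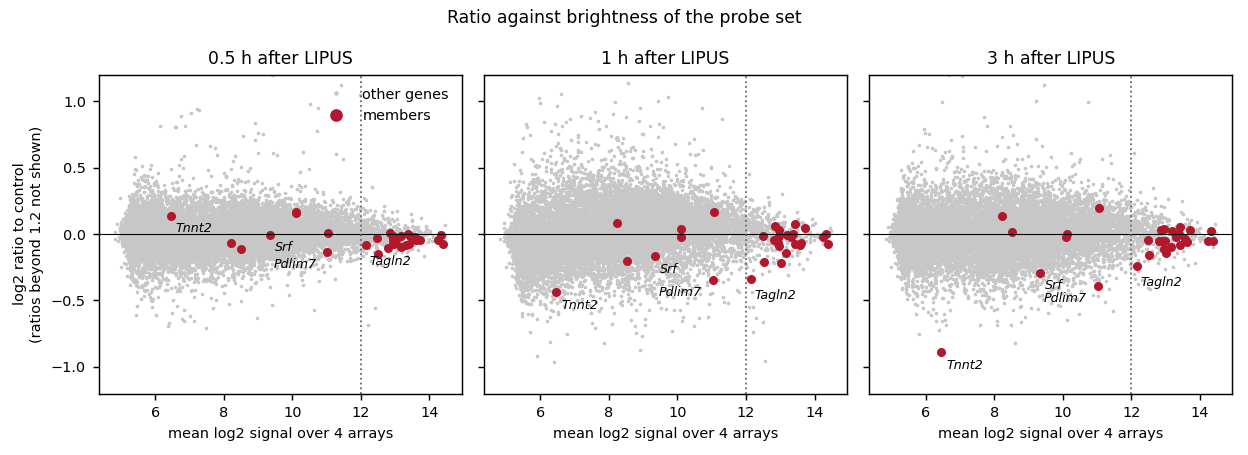
Log2 ratio to the control (vertical axis) against the mean log2 signal of the gene's probe set over the 4 arrays (horizontal axis), for members (red) and all other measured genes (grey) at 0.5, 1 and 3 h; the dotted line marks a signal of 12. Of the 31 members, 23 lie right of it, of which 0 at 0.5 h, 1 at 1 h (Tagln2, at −0.34) and 0 at 3 h reach a shift of 0.25. At 3 h Tnnt2 lies below every grey point.

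The marker lists describe the cells. Of 8 stromal markers, 7 were above the floor, the exception being Thy1. Of 10 smooth muscle markers 7 were above it, namely the members Acta2, Tagln, Cnn1, Lmod1 and Actg2 together with smoothelin (Smtn) and desmin (Des), whereas Myh11, the smooth muscle myosin heavy chain, Synpo2 and Myocd, the muscle-restricted SRF cofactor, were under it on all arrays. Of 11 striated muscle markers 5 were above the floor. Of 6 epithelial markers 3 were above it, Cdh1, Krt18 and Vil1 being under. Those above were Epcam, Krt8 and Krt19, at 7.48, 6.02 and 7.27 in the control. Of 6 haematopoietic markers with a probe set 2 were above it, and Ptprc, Cd68, Adgre1 and Itgam were not. The 2 were Lyz2 and Cd3e, at 6.84 and 6.08 in the control. The log2 of the summed linear signals of the smooth muscle markers was 15.36 in the control and 15.34, 15.32 and 15.35 after LIPUS, that of the stromal markers 16.13, 16.11, 16.09 and 16.14, that of the epithelial markers 8.74, 8.77, 8.55 and 8.59, and that of the haematopoietic markers 7.85, 8.02, 8.07 and 8.07.

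The CArG boxes of the members are shown here because this is the DNA element that SRF binds. Promoter sequences, from 250 bases before to 50 bases after a gene start, come from RefSeq on build GRCm38.p6 and were given for 29 of the 32 members, Actb, Actg2 and Tagln not being among them. An exact CArG box is 2 cytosines, 6 bases that are each A or T, and 2 guanines; it reads the same way on both strands, so a single search covers both. It stood in a promoter of 9 of 29 members, which is 31.0%, and of 1.81% of all 27025 genes with a promoter. The list was drawn up to hold SRF targets, so a high share can follow from that choice alone, and it was not tested. Of all 32851 promoters in the table, 1.63% held it. The 9 were Actg1, Cnn2, Fhl1, Fhl2, Myl6, Myl9, Srf, Vcl and Vil1. The boxes of Fhl1, Fhl2 and Myl6 are not printed. In the windows of 30 bases below, given 5′ to 3′ along the gene, capitals mark the box. Srf has a pair of boxes, at chr17:46556225-46556254 and chr17:46556205-46556234 on the minus strand, the windows overlapping but not the boxes. The other boxes printed are those of Actg1 at chr11:120348566-120348595 on the minus strand, Vcl at chr14:20929161-20929190 on the plus strand, Myl9 at chr2:156775293-156775322 on the plus strand, Cnn2 at chr10:79988534-79988563 on the plus strand, and Vil1 at chr1:74409301-74409330 on the plus strand.
Srf, distal box: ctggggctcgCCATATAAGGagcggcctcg
Srf, proximal box: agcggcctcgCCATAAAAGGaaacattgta
Actg1: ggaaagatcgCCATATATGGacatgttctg
Vcl: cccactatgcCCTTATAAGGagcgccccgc
Myl9: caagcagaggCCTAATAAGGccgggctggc
Cnn2: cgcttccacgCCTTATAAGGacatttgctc
Vil1: ccctatcttcCCTTATATGGtgaaggaagt

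The box of Actg1 begins 90 bases before the gene start, that of Cnn2 56, that of Vil1 73, that of Myl9 161 and that of Vcl 227, and those of Srf 82 and 62. Vil1, with its intact box, is the member under the floor on every array. The measured members with a box, 8 genes, had median log2 ratios of −0.03, −0.02 and −0.04 at 0.5, 1 and 3 h, and the 20 measured members whose promoter held none had −0.04, −0.04 and −0.05. The ratios with a box ran from −0.08 to 0.16 at 0.5 h, from −0.21 to 0.08 at 1 h and from −0.29 to 0.14 at 3 h. The values of members with and without a box overlapped at each time, and the lowest at 1 h and 3 h, −0.44 and −0.89, belonged to Tnnt2, whose promoter held none. A match describes letters and is not a measured binding site. A promoter without a match may hold an inexact box, or one outside the bases searched.

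The 4 actins in the list are cytoplasmic β-actin (Actb) and γ-actin (Actg1), which form the stress fibres and cortex of most cells, and the smooth muscle forms α (Acta2) and γ (Actg2), which mark contractile stromal cells. The brightest Actb probe set gave log2 signals of 14.45, 14.37, 14.37 and 14.40 on the control, 0.5 h, 1 h and 3 h arrays. Its second probe set gave 13.56, 13.89, 13.94 and 13.79. The first was therefore lowest, and the second highest, on LIPUS arrays, with log2 ratios of −0.08, −0.08 and −0.05 for the first and 0.33, 0.38 and 0.23 for the second. The manufacturer's separate control probe sets for Actb, which read 3 places along the transcript, gave 14.36, 14.31, 14.23 and 14.27 at the 5′ end, and 14.48, 14.45, 14.47 and 14.48 at the 3′ end. The middle one gave 14.227, 14.17, 14.144 and 14.175. The 5′ signal minus the 3′ signal, a sign of RNA and labelling integrity, was −0.12 on the control array and −0.14, −0.24 and −0.21 on the LIPUS arrays in order of time, and its part in the ratios of single probe sets was not tested. The direction of Actb on these arrays thus depends on the probe set, and only the second Actb probe set was above the control at each time.

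Acta2, the α-smooth muscle actin of myofibroblasts, had signals of 14.33, 14.32, 14.33 and 14.35, a range of 0.03 over the arrays. Its dimmer probe set lay at 7.37, 7.24, 7.41 and 7.38. Actg1 was at 14.28, 14.23, 14.25 and 14.22, and Actg2 at 13.25, 13.15, 13.11 and 13.15. None of the 4 actins moved by more than 0.15 by its brightest probe set. Actin transcripts are near-identical in their coding parts, so how far their probe sets share signal is uncertain.

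Among proteins that bundle filaments or anchor them, Actn4, a non-muscle α-actinin, had the lowest ratios by the brightest probe sets: signals of 12.64 in the control and 12.49, 12.43 and 12.49 after LIPUS gave log2 ratios of −0.15, −0.21 and −0.16. Actn1, its close relative at stress fibres and adhesions, was at 12.96, 12.93, 12.93 and 12.91 by its brightest probe set. Its other 2 probe sets were at 11.64, 11.42, 11.40 and 11.46, and at 11.62, 11.42, 11.44 and 11.39. All 3 were lower than the control at each time, with log2 ratios from −0.23 to −0.03. Flna, which encodes the cross-linker filamin A, was at 12.98, 12.92, 12.91 and 12.93, and Vcl, the adhesion protein vinculin, at 13.01, 12.94, 12.99 and 12.96. The second Vcl probe set was at 9.36 in the control and 9.37, 9.04 and 9.06 after LIPUS, so it was level at 0.5 h and lower afterwards, with log2 ratios of −0.32 at 1 h and −0.30 at 3 h.

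The myosin genes did not move as a group. Myl9, the regulatory light chain that switches contractility on when phosphorylated, was at 13.12 in the control and at 13.07, 12.90 and 12.97 after LIPUS, lowest at 1 h with a log2 ratio of −0.21. Myh10, the heavy chain of non-muscle myosin IIB, was at 10.96, 10.97, 11.13 and 11.16, with ratios of 0.01, 0.17 and 0.20, the highest of any member at 1 h and 3 h. Myh9, the heavy chain of non-muscle myosin IIA, was at 13.48 in the control and 13.40 on each LIPUS array by its brightest probe set. A much dimmer Myh9 probe set went the other way, at 8.31, 8.60, 8.98 and 8.96, which is a log2 ratio of 0.67 at 1 h and 0.64 at 3 h. The remaining Myh9 probe sets gave ratios of −0.14, −0.26 and 0.28 at 1 h. Myl6, the essential light chain, was at 8.19, 8.12, 8.27 and 8.33 by its 1 probe set with a single symbol, and 2 further probe sets were not used because they also name other genes.

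In the calponin family, which stabilises filaments and restrains myosin, Tagln2 had the lowest log2 ratios at each time by the brightest probe sets. Tagln2, transgelin-2, a form found outside muscle, was at 12.32 in the control and 12.24, 11.98 and 12.08 after LIPUS. Its log2 ratios were −0.09, −0.34 and −0.24, and those of its second measured probe set −0.16, −0.36 and −0.31. Tagln, the smooth muscle form and a standard MRTF target, was at 13.19, 13.17, 13.18 and 13.21. Cnn1, the smooth muscle calponin, was at 10.05, 10.21, 10.09 and 10.03, and so highest at 0.5 h by 0.16. Cnn2, its widely expressed relative, was at 13.62, 13.59, 13.53 and 13.58. Cnn3, the third calponin, was at 12.95, 12.93, 12.99 and 12.99, and all 6 of its probe sets were above the control at 1 h and 3 h, by up to 0.13 and 0.21. Cald1, caldesmon, was grouped with this family by role only. It was at 13.35, 13.27, 13.33 and 13.33 by its brightest probe set, while 2 others, at 12.42 and 12.27 in the control, had ratios of −0.43 and −0.22 at 1 h.

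Tnnt2 was the member that departed furthest from the control. It encodes troponin T of cardiac muscle, the subunit that ties the troponin complex to tropomyosin. Its signals were 6.75 in the control and 6.88, 6.31 and 5.86 after LIPUS. The log2 ratios were 0.13, −0.44 and −0.89, so the 0.5 h array was the highest and the 3 h array the lowest, and these 2 arrays, a contrast chosen after the values were seen, differed 2.04-fold. A second probe set ran in parallel, at 6.65, 6.81, 6.22 and 5.73, with ratios of 0.16, −0.43 and −0.93. Whether these probe sets share probes was not examined. At 3 h this was the lowest ratio of all 11574 measured genes, and it kept that place after median centring, quantile normalization and cyclic loess; without the floor it was the third lowest. The signal is dim: with the floor at the 75th percentile of all values, Tnnt2 lay under it on all arrays and had no ratio. Among other striated muscle markers above the floor, Acta1 was at 8.47, 8.34, 8.11 and 8.23, Actc1 at 6.43, 6.35, 6.10 and 6.41, Ckm at 5.61, 5.69, 5.29 and 5.62, and Tnnc1 at 5.37, 5.57, 5.49 and 5.32. Acta1, Actc1 and Ckm were thus lowest at 1 h, when Tnnt2 was also below the control, and Actc1 and Ckm were near it again at 3 h. The log2 of the summed signal of the 11 markers was 9.53, 9.49, 9.21 and 9.29 over the 4 arrays. Their part in the result was not tested.

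The tropomyosins, which coat actin filaments and set which myosins may bind, stayed near the control by their brightest probe sets. Tpm4 was at 13.38 on all 4 arrays, with a range of 0.004. Tpm2 was at 13.40, 13.39, 13.48 and 13.46, and Tpm1 at 13.00, 12.99, 12.91 and 12.89. A second Tpm1 probe set, about as bright, was at 13.01, 13.04, 12.80 and 12.80, with log2 ratios of 0.03, −0.21 and −0.21. Tpm3 was at 12.86, 12.75, 12.81 and 12.81, and all 5 of its measured probe sets were lower than the control at 1 h and 3 h. The lowest of the 5 was at 10.93, 10.76, 10.47 and 10.61, with a ratio of −0.46 at 1 h. The genes make several isoforms, and which isoform each probe set reads was not examined. Lmod1, leiomodin, which nucleates filaments in smooth muscle, was at 8.59, 8.48, 8.39 and 8.61, lowest at 1 h and level at 3 h.

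Genes for filament turnover stayed close to the control by their brightest probe sets. Cfl1, cofilin, which severs old filaments, was at 13.72, 13.67, 13.76 and 13.75, and its other probe set at 13.35, 13.28, 13.14 and 13.23. Cfl2, the muscle form, was at 12.51, 12.48, 12.49 and 12.46, while a dimmer probe set of it, at 9.68 in the control, had log2 ratios of −0.22, −0.02 and −0.08, lowest at 0.5 h. Pfn1, profilin, which recharges actin monomers, was at 13.66, 13.61, 13.59 and 13.59. Their ratios lay between −0.07 and 0.045 at all 3 times by those probe sets.

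Srf was the transcription factor among the members and is itself a target of SRF. Its signals were 9.45 in the control and 9.45, 9.29 and 9.16 after LIPUS, level at 0.5 h and lowest at 3 h. The log2 ratios were −0.00, −0.17 and −0.29, and those of its second probe set −0.04, −0.19 and −0.38. Pdlim7, a PDZ and LIM protein of actin filaments also known to act in bone formation, was at 11.24, 11.11, 10.90 and 10.85. Its ratios were −0.14, −0.34 and −0.39, but 2 dimmer probe sets had −0.02 and −0.13 at 1 h and −0.14 and −0.12 at 3 h. Fhl2, a LIM cofactor that competes with MRTF for SRF, was at 10.08, 10.24, 10.06 and 10.08, highest at 0.5 h. Fhl1, its relative in muscle, was at 12.84, 12.84, 12.89 and 12.86.

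**Figure D3:**
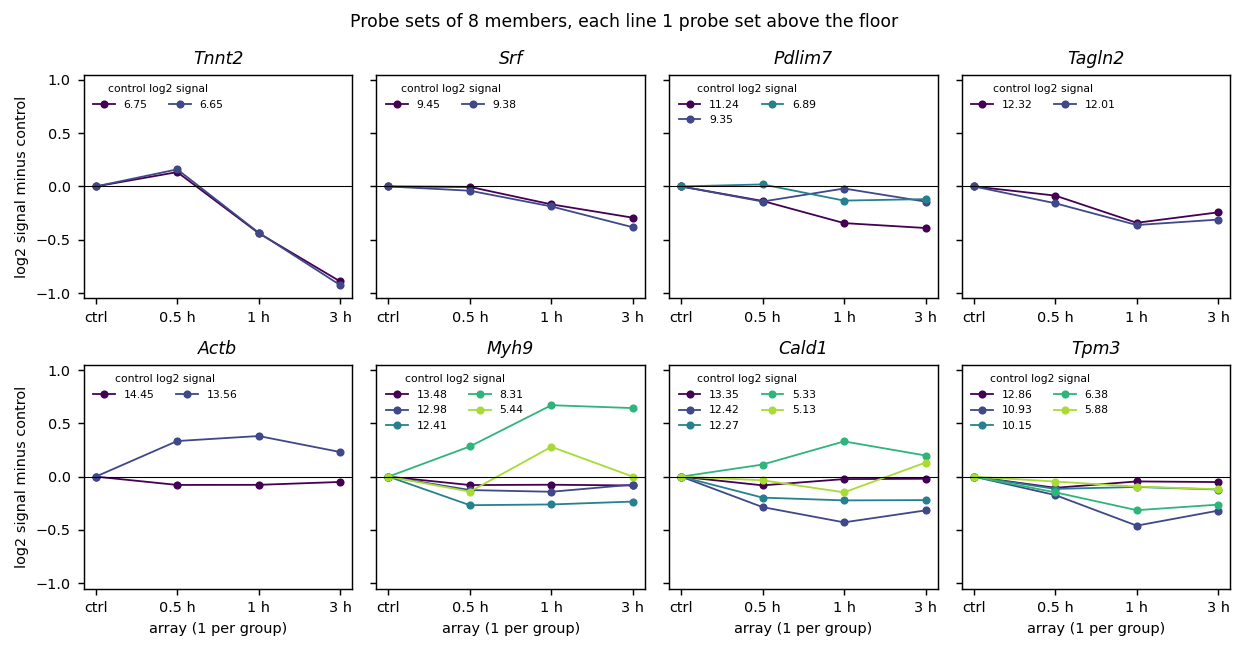
Log2 signal minus that of the control array (vertical axis) for every probe set above the floor of 8 members, on the control, 0.5 h, 1 h and 3 h arrays (horizontal axis); each line is 1 probe set, named by its control signal, with no floor applied. The probe sets of Tnnt2, Srf and Tagln2 run together, whereas those of Actb, Myh9 and Cald1 part in direction.

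Across all 66 member probe sets above the floor, 0 differed 2-fold at any time. Of the probe sets with 1 symbol that were above the floor in a comparison, 0.147%, 0.171% and 0.0782% did at 0.5, 1 and 3 h. The 1.5-fold step was passed by 0, 1 and 3 of the member probe sets, against 0.514%, 1.52% and 0.699% of all such probe sets. The 1 at 1 h was the dim Myh9 probe set, and the 3 at 3 h were that probe set and both of Tnnt2. The median ratios of the member probe sets were −0.04, −0.04 and −0.05, close to the medians by gene. Of the 16 members with several measured probe sets, all probe sets were lower than the control for 8 genes at 0.5 h, 9 at 1 h and 9 at 3 h, all were higher for 1, 1 and 2, and the others were mixed. The median gap between the highest and lowest probe set of such a gene was 0.12, 0.21 and 0.18.

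Other genes of the pathway are given in 4 lists by role, chosen with earlier results of these data known. Among 10 immediate-early targets that SRF shares with ternary complex factors, 9 were measured; 3 rose 2-fold and 0 fell at 0.5 h, 3 rose and 0 fell at 1 h, and 0 passed at 3 h, where 0.138%, 0.191% and 0.0691% of all measured genes passed in either direction. They were Fos, Egr1 and Arc. The 1.5-fold step was passed upward by 5 of the 9 at 0.5 h and by 4 at 1 h. Of all measured genes, 0.475% and 1.28% passed it in either direction. Beside those 3 genes, Egr2 and Ier2 passed it at 0.5 h, at 1.85-fold and 1.68-fold, and Junb at 1 h, at 1.84-fold. Fos, an AP-1 subunit, was at 5.08 in the control, under the floor, and at 8.82, 7.76 and 5.70 after LIPUS, so at least 5.80-fold higher at 1 h. Egr1, a zinc finger factor, was at 8.68, 11.83, 10.84 and 8.84, and Arc, an activity-regulated gene, at 5.83, 7.63, 7.44 and 5.74, which is 3.49-fold and 3.06-fold higher at 0.5 h and 1 h. From 1 h to 3 h these 3 genes fell at least 2-fold. The list medians were 0.75, 0.39 and 0.03. The lowest members were Egr3, at −0.05 and −0.31 at 0.5 h and 1 h, and Nr4a1, at −0.52 at 3 h, when Fos was again the highest, at least 1.38-fold above the control. Fosb was under the floor.

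Of 19 further genes attributed to MRTF and SRF, 17 were measured and 0 passed 2-fold in either direction at any time, with medians of −0.08, −0.04 and −0.04. Of all measured genes, 0.138%, 0.191% and 0.0691% passed it at the 3 times, so a count of 0 is near the background. At 1 h the highest was Filip1l, a filamin-interacting protein, at a log2 ratio of 0.68, and the lowest was Tgfb1i1, the adhesion adaptor Hic-5, at −0.63. At 0.5 h the highest was Ccn1, a matricellular protein, at 0.36, and the lowest was Itga5, the α-subunit of the fibronectin receptor, at −0.36. At 3 h Filip1l was again the highest at 0.40, and Zyx, the mechanosensitive adhesion protein zyxin, the lowest at −0.58, its signals being 11.77, 11.62, 11.25 and 11.19. A dimmer Zyx probe set had −0.24 at 3 h. Of the 4 Ccn1 probe sets, the 2 dim ones had ratios of 0.80 and 0.85 at 1 h, where the bright ones had 0.05 and −0.08.

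Of 8 SRF cofactors and partners 6 were measured and 0 passed 2-fold, where 0.138%, 0.191% and 0.0691% of all genes did at the 3 times. By their brightest probe sets all 6 were below the control at 0.5 h, with a median of −0.14, where 46.9% of all genes lay below it. At that time dimmer measured probe sets of Elk1 (0.05) and Elk3 (0.02 and 0.05) were above the control, while those of Mrtfb (−0.10 and −0.21) were below it. Scai, a repressor of MRTF, was lowest at 0.5 h, at −0.27, with its LIPUS signal under the floor; it was highest at 1 h, at 0.15. Elk3, a ternary complex factor, was at −0.26 at 1 h and 3 h, Elk1, its relative, at −0.03 at 0.5 h, and Mrtfb at 0.13 at 3 h. Of 37 genes of actin assembly and turnover 32 were measured and 0 passed 2-fold, against the same shares of all genes. Their medians were −0.02, −0.01 and −0.02. Pfn2, a second profilin, was the highest at each time, at 0.16, 0.43 and 0.42, Flnc, filamin C, the lowest at 0.5 h at −0.31, and Coro1c, a coronin of the cell edge, the lowest at 1 h and 3 h, at −0.57 and −0.54.

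**Figure D4:**
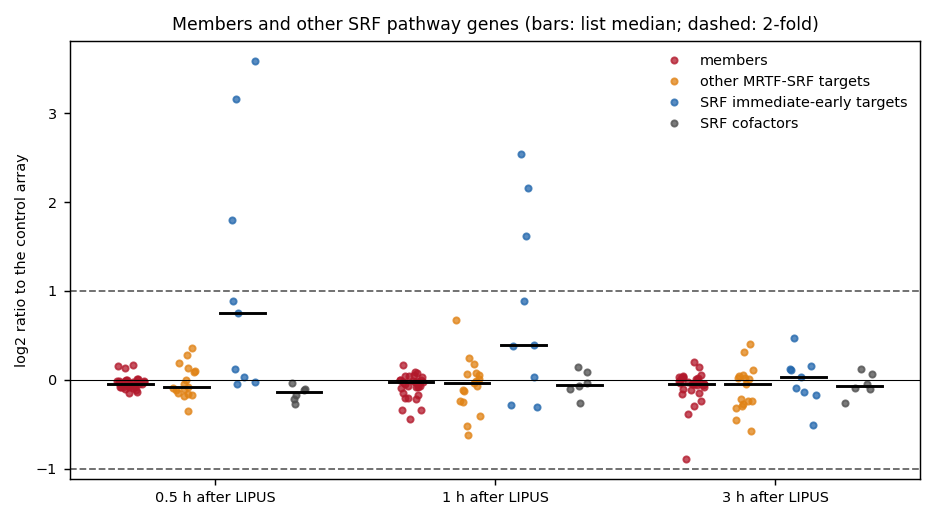
Log2 ratio to the control (vertical axis) of the members and of 3 further lists at 0.5, 1 and 3 h after LIPUS (horizontal axis); each point is a gene, the bar is the list median and dashed lines mark 2-fold. Fos, Egr1 and Arc lie above 1 at 0.5 h and 1 h, while the members' medians stay between −0.05 and −0.03. The points of Fos are lower bounds. The members and lists were chosen with earlier results of these data known.

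The 4 arrays were alike in distribution, with median log2 signals from 5.21 to 5.25 and 22453 to 22703 probe sets above the floor. The 3 probe sets for 18S ribosomal RNA were higher on each LIPUS array than in the control, the middle one at 11.22, 12.66, 13.25 and 13.53. The 5′ minus 3′ signal of Gapdh was 0.12 in the control and 0.06, −0.04 and −0.04 after LIPUS. The 18S and 5′ minus 3′ values, that of Actb included, differed more from the control at 1 h and 3 h, when Srf, Tagln2 and Pdlim7 were lower, than at 0.5 h. Hspa1a, an inducible heat shock chaperone, had the highest log2 ratio of any gene at each time, 5.71, 6.05 and 3.44. The part of these values in the members' ratios was not tested.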

How the data were processed

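Total RNA from 4 cultures, 1 per group, was labelled from 500 ng with a 3′ IVT kit and hybridised to Affymetrix Mouse Genome 430 2.0 arrays, per the labels' protocols and the series' design text. The authors deposited log2 signals, summarised to a single value for each probe set on each array, per the deposited value table; the base of the logarithm was inferred from their span, 1.53 to 14.48. The summarising and scaling methods are not given in the sources used here. Either would carry over into each ratio. With so few arrays, their number limits precision.

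Of 45101 probe sets, 64 controls were left out, 34958 had 1 gene symbol, 932 several and 9211 none in the annotation used. Symbols were updated through Entrez numbers, matched for 34754. The probe set brightest on average stood for a gene. A floor was set at the median of the deposited values, log2 5.23; lower signals took its value, and genes were compared where 1 or both arrays exceeded it; a ratio against a signal under the floor is a lower bound. A log2 ratio of 1 (2-fold) was the main rule of size and 1.5-fold the lower step. No test was possible with 1 array per group. The 2-fold rule was checked on simulated data with known answers, with shifts larger than the rule and signals well above the floor. That check did not cover the 1.5-fold step or dim signals such as those of Tnnt2.

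The members and lists were chosen with earlier results of these data known. The text names every member, each gene of 4 pathway lists past 2-fold, and the highest and lowest of each list at each time; 1 further list is not reported here; markers, other probe sets and control probe sets are described beside them. Genes of the immediate-early list past 1.5-fold are named as well. RefSeq promoters (GRCm38.p6) were searched for exact CArG boxes. Alternatives covered floor, scaling, probe set choice, filter and reference array. Python 3.11.15, numpy 2.4.6, pandas 2.3.3, R 4.3.3 and limma 3.58.1 (scaling only) were used.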

Additional observations from a re-analysis of the deposited data

How the results depend on the processing

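No paired analysis was possible because each group is a single array. The count of members differing 2-fold was 0 at each time and between adjacent times with the floor at the 25th or 75th percentile or absent, after median centring, quantile normalization or cyclic loess, with the mean over probe sets, with both arrays above the floor, and, against the control only, with the mean of the other 3 arrays as reference or, chosen after seeing the data, with the dimmest measured probe set. The count differing 1.5-fold at 3 h was 1 under each of these except the floor at the 75th percentile, where it was 0 because Tnnt2 lay under that floor. Tnnt2 at 3 h had log2 ratios from −0.93 to −0.79 over the other alternatives, the weakest against the mean of the other 3 arrays, where it was the 8th lowest gene. The members' median against the control ranged from −0.06 to −0.02 at 0.5 h, −0.07 to −0.01 at 1 h and −0.07 to −0.02 at 3 h, and no alternative turned its sign. Single members moved by more than the spread between probe sets in 39 of 927 recomputed values, 21 of them with the dimmest probe set, 11 with the other reference and 7 with the mean over probe sets; Actb then had mean ratios of 0.13, 0.15 and 0.09 at 0.5, 1 and 3 h. The spread between cultures was not measured, so none of these differences can be set against it. Tnnt2 rests on signals within 2 log2 units of the floor.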
